A study of Rattus norvegicus with 18 samples.

Results

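The macrophage and myeloid genes are 38 genes of blood-derived phagocytes, measured here in cultured bone marrow mesenchymal stem cells (BMSC, the adherent stromal cells of the marrow) of Sprague-Dawley rats. A gene was taken from the arrays by the probe sets whose annotation names that gene and no other. This gave 42 probe sets for 36 of the 38 genes, out of 11446 named genes tested. Msr1, a scavenger receptor, and Spi1, which encodes the transcription factor PU.1, had no such probe set and have no values here. The rats were 6 weeks old when they were randomized to a high-fat diet (HFD) or a normal diet (ND). HFD held 60% basal diet with 20% lard and 10% each of sucrose and powdered egg yolk, and ND was basal diet at 100%. The groups were HFD and ND after 1 month, HFD and ND after 2 months, and HFD and ND after 4 months of feeding, with 3 Affymetrix expression arrays each. No genetic change is named for any group, and every culture was started by plating whole marrow and then passaged. The labels' protocols name no step that selects cells by a surface marker. The samples' own labels state passage 3 and the series text P1. The series text gives n = 3 per group and nothing more on separate animals. A p-value here thus sets a difference of group means against the spread of arrays within groups, which may be technical in part.

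Macrophages are tissue phagocytes that depend on the receptor Csf1r and on PU.1 for their development. Whole marrow contains monocytes and macrophages, which stick to culture plastic as stromal cells do, so cultures started from unsorted marrow are known to carry some of them. Receptors such as Fcgr2b and Trem2 signal through, or against, adaptors such as Tyrobp and Fcer1g and the kinases and phosphatases around them. Lysosomal proteases, lysozyme and the NADPH oxidase then act on what has been taken up, and macrophages are a main source of complement C1q.

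The deposited values are linear intensities, and log2 of them is used throughout. Medians of the arrays were 25.4 to 27.1. In the column of ND 1-month replicate 1 all values stand 1343 rows too high; they were moved down, so that 6 of the 36 genes (Cd14, Cd53, Gpnmb, Ptpn6, Lyn and Aif1) have no value on that array and are compared on 2 ND arrays at 1 month. Of 15 stromal markers listed 14 were tested, all but Lepr. Of these, 13 lay on every array above 3.22 log2 units, the level that set off the dimmest 30% of probe sets. That level is a rank among probe sets and not a limit of detection. Their levels differed: Thy1, a surface marker of stromal cells, lay between 11.71 and 12.13, the collagen gene Col1a2 between 12.89 and 13.26 and the surface glycoprotein Eng between 5.69 and 6.68. The exception was the adhesion protein Vcam1, at 2.56 to 6.77. Apart from Vcam1, the tested stromal markers of the labelled cell type thus read above 3.22 log2 units on all 18 arrays. Most of the 36 macrophage and myeloid genes were read on these arrays as well, at levels that differed widely between arrays. At or below 3.22 log2 units were 6 of the 36 genes on ND 1-month replicate 3 and 0 to 3 on each other array. All 42 probe sets of the listed genes lay above that level in their mean over the arrays and were tested.

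The listed genes varied far more between arrays than other genes, and they varied together. Their median SD over the 18 arrays was 1.63 log2 units, against 0.217 for all 11446 named genes. An SD above 1 was found for 30 of the 36 genes (83.3%) and for 409 of all named genes (3.57%). This spread was not mainly a spread between the 6 groups: the groups held a median of 39.7% of the variance of the listed genes, against 38.6% for all genes. Within groups the median SD was 1.48 log2 units for the listed genes and 0.199 for all genes. Among the 30 genes measured on all 18 arrays there are 435 pairs, whose median correlation was 0.875, and 0.878 after the group means had been taken out. Pairs of values come from the same arrays, and the correlations are given as a description over 18 arrays. The list was chosen with earlier results of these data known, so its contrast with all genes is a description as well and not a test.

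Of the 36 genes, 27 had a correlation above 0.9 with the mean of the others. Lcp1, an actin-bundling protein of leukocytes, and Cd68, a glycoprotein of macrophage lysosomes, were among those that followed that mean closely, with Spearman rank correlations of 0.99 and 1.00. The exceptions were Cd48 at -0.15, Cx3cr1 at -0.20, Ccr1 at 0.56, C1qb at 0.74, C1qc at 0.77, Ncf1 at 0.81, C1qa at 0.83, Cd163 at 0.87 and Lyz2 at 0.88. Cd48 encodes an adhesion protein of blood cells, Cx3cr1 and Ccr1 are chemokine receptors, Ncf1 is a cytosolic subunit of the NADPH oxidase, and Lyz2 is lysozyme. The levels of these 9 genes are described further on, those of Lyz2 as a range and on the arrays of 1 month.

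The mean of the 30 genes measured on all arrays places each culture on 1 scale. At 1 month it was 6.98, 8.34 and 6.92 log2 units on the HFD arrays, against 8.76, 5.70 and 4.56 on the ND arrays. At 2 months it was 5.36, 6.57 and 7.45 on the HFD arrays, against 8.96, 8.86 and 5.91 on the ND arrays. At 4 months it was 8.77, 8.48 and 8.66 on the HFD arrays, against 8.0, 9.04 and 7.69 on the ND arrays. At 1 month both the highest and the lowest value were thus those of ND arrays. At 2 months the highest was that of an ND array and the lowest that of HFD replicate 1. The diets overlapped at every time, and the HFD cultures of 4 months lay close together. The means were 7.42 ± 0.81 in HFD and 6.34 ± 2.17 in ND at 1 month, 6.46 ± 1.05 in HFD and 7.91 ± 1.73 in ND at 2 months, and 8.64 ± 0.15 in HFD and 8.24 ± 0.71 in ND at 4 months (SD, n = 3 each). In RNA from a whole culture, fewer cells of a type and less RNA per cell cannot be told apart.

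**Figure D1:**
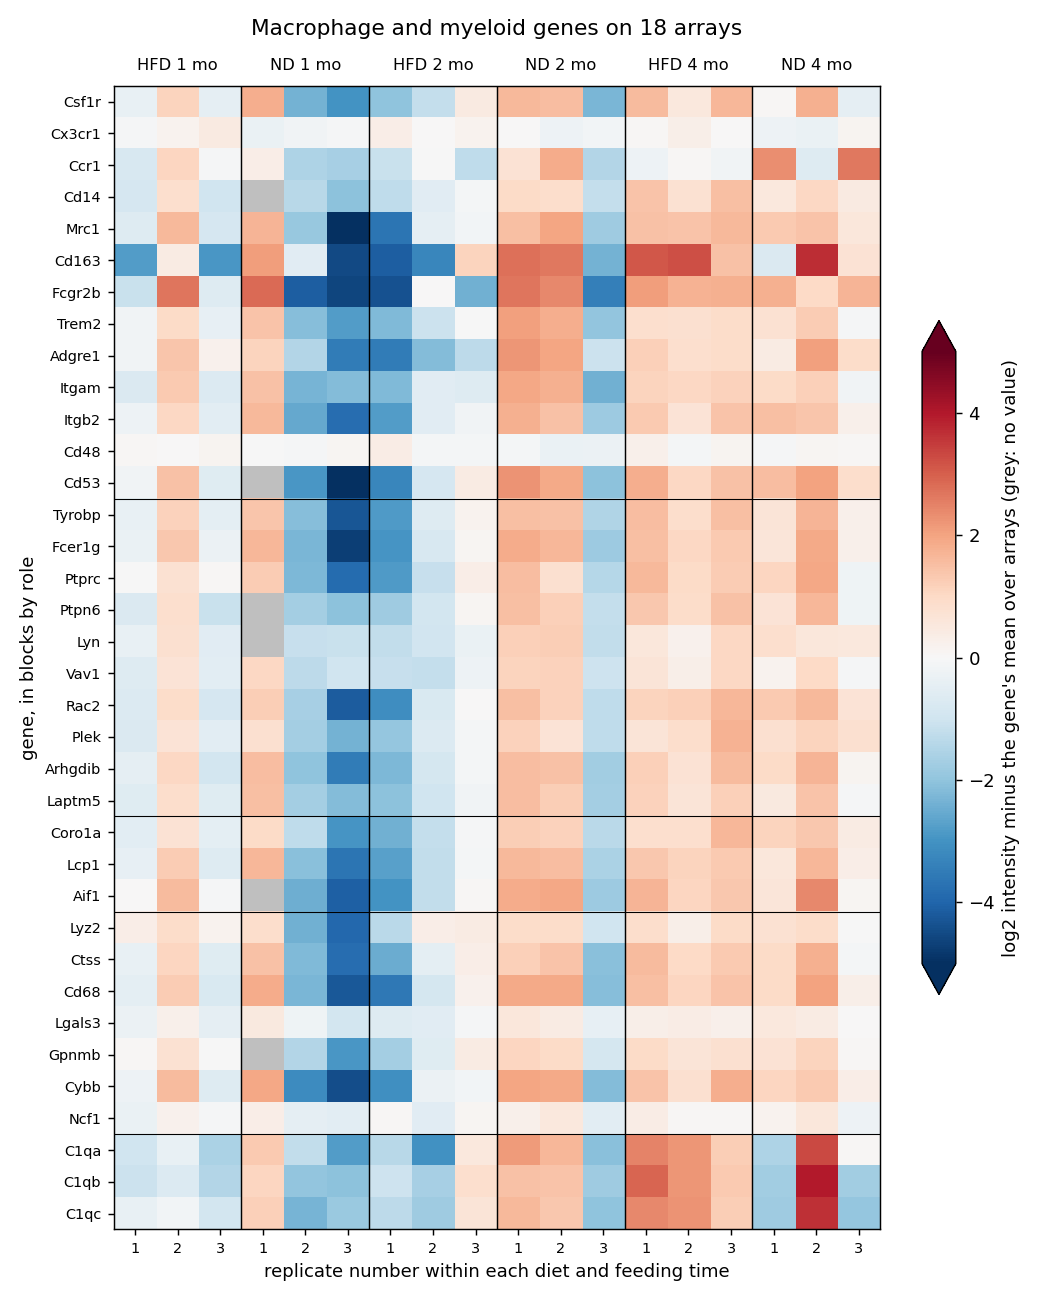
Each row is 1 of the 36 genes, in blocks by role, and each column 1 of the 18 arrays, with HFD left of ND at each feeding time (1, 2 and 4 months). Colour gives log2 intensity minus the gene's mean over arrays, with the scale ending at the darkest shades, and grey marks the 6 genes without a value on ND 1-month replicate 1. Whole columns are red or blue together, Cd48 and Cx3cr1 stay pale, and the C1q rows and Ccr1 break from the column pattern at 4 months.

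The spread within a group differed between groups. The median SD of the 36 genes over 3 arrays was 0.87 log2 units in HFD and 2.11 in ND at 1 month, 1.21 in HFD and 1.83 in ND at 2 months, and 0.32 in HFD and 0.69 in ND at 4 months. For all named genes the same medians lay between 0.14 and 0.19 in every group. In the HFD group at 4 months 0 of the 36 genes had an SD above 1, against 8 in the ND group at 4 months and 32 in the ND group at 2 months. These spreads describe 3 arrays each, and their difference was not tested.

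Because the genes moved together, their promoters were read for the core letters GAGGAA, a form of the motif that PU.1 binds, on either strand (TTCCTC in the direction of the gene). RefSeq promoters of the GRCr8 build, running from 250 bases before to 50 bases after the start of a gene, were matched for 24 of the 38 genes. Of these, 17 (70.8%) held the letters at least once and 6 held them at 2 places, while 27.6% of all 33469 promoters of that length in the same table held them. A match is a description of the sequence and not a site of binding. Printed below are the promoters of Cd68, Mrc1 and C1qb, which hold 2 matches each, and that of Cd48, which holds none. Cd68 was close to the common pattern, Mrc1 had a very wide range, C1qb is a C1q gene and Cd48 hardly varied. The promoters are printed in the direction of the gene with the letters in capitals. They lie at chr10:54882392-54882691 on the minus strand, chr17:82157475-82157774 on the plus strand, chr5:154407778-154408077 on the minus strand and chr13:86717744-86718043 on the plus strand.
Cd68: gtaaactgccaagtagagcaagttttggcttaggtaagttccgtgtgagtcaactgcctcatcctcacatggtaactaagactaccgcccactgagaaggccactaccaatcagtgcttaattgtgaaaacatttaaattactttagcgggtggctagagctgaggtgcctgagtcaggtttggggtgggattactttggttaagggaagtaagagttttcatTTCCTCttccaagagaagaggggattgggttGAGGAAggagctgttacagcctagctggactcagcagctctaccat
Mrc1: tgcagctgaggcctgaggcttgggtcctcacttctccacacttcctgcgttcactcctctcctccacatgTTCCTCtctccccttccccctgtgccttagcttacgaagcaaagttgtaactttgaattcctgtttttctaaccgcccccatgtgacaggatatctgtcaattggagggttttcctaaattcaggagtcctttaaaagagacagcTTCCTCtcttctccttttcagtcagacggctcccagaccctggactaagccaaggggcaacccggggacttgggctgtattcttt
C1qb: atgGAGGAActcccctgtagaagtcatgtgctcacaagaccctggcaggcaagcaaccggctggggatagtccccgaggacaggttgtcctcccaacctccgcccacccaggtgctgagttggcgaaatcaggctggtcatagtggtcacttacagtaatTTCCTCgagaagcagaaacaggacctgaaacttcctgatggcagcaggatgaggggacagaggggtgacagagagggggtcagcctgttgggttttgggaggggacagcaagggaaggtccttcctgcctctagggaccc
Cd48: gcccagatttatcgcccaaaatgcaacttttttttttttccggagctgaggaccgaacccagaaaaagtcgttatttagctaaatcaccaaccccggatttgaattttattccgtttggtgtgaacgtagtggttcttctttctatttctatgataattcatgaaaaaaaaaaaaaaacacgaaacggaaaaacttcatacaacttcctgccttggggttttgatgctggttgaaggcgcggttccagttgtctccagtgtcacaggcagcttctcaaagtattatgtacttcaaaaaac
Counted from the start of the gene, the matches begin at positions -27 and 5 in Cd68, at -180 and -35 in Mrc1, and at -247 and -90 in C1qb. The other genes with 2 matches were Csf1r, Cd14 and Itgam. Without a match were Coro1a and Ptpn6, genes of the common pattern, C1qa, and Cd163, whose range was wider than that of Mrc1. The others without one were Cd48, Cx3cr1 and Ncf1, which varied little. Whether the letters go with the spread of a gene was not tested.

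Among the surface receptors, Csf1r, the receptor for macrophage colony-stimulating factor, followed the common pattern. At 1 month it read 6.00, 7.48 and 5.92 on the HFD arrays, against 8.19, 4.03 and 3.39 on the ND arrays (log2 intensities). At 2 months it read 4.39, 5.21 and 6.82 on the HFD arrays, against 8.01, 7.94 and 4.12 on the ND arrays. At 4 months it read 7.96, 6.91 and 8.03 on the HFD arrays, against 6.44, 8.18 and 5.95 on the ND arrays. The highest values were on ND arrays at 1 and 4 months and on 2 ND arrays at 2 months, and at each time another ND array was the lowest. Itgam, the integrin chain also called CD11b, was alike. Its log2 intensities at 1 month were 5.17, 7.18 and 5.19 on the HFD arrays, against 7.34, 3.54 and 3.70 on the ND arrays. For 2 months they were 3.69, 5.31 and 5.25 on the HFD arrays, against 7.83, 7.66 and 3.47 on the ND arrays. For 4 months they were 7.02, 6.92 and 7.04 on the HFD arrays, against 6.84, 7.06 and 5.71 on the ND arrays. The diets overlapped at all 3 times.

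Fcgr2b, the inhibitory receptor for IgG, and Cd163, the scavenger receptor for haemoglobin and haptoglobin, had the widest ranges of the 36 genes, from 1.89 to 9.33 and from 2.08 to 10.30 log2 units. Fcgr2b read 5.36, 9.15 and 5.85 on the HFD arrays, against 9.33, 2.34 and 1.89 on the ND arrays at 1 month. It read 2.14, 6.51 and 4.08 on the HFD arrays, against 9.15, 8.89 and 3.05 on the ND arrays at 2 months. It read 8.55, 8.21 and 8.26 on the HFD arrays, against 8.26, 7.49 and 8.18 on the ND arrays at 4 months. At 1 and 2 months 3 ND arrays stood at the low end with HFD 2-month replicate 1, and at 4 months all 6 arrays lay within about 1 unit of each other. Cd163 read 3.83, 7.02 and 3.69 on the HFD arrays, against 8.70, 6.04 and 2.08 on the ND arrays at 1 month. It read 2.47, 3.36 and 7.70 on the HFD arrays, against 9.36, 9.25 and 4.23 on the ND arrays at 2 months. It read 9.69, 9.81 and 8.06 on the HFD arrays, against 5.90, 10.30 and 7.34 on the ND arrays at 4 months. Cd163 was low on HFD 1-month replicates 1 and 3, below ND 1-month replicate 2, and low again on ND 4-month replicate 1.

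Mrc1, the mannose receptor of macrophages, and Cd53, a tetraspanin of white blood cells, covered more than 7 log2 units. Mrc1 read 8.73, 11.00 and 8.54 on the HFD arrays, against 11.08, 7.49 and 4.21 on the ND arrays at 1 month. It read 5.73, 8.91 and 9.24 on the HFD arrays, against 10.87, 11.34 and 7.60 on the ND arrays at 2 months. It read 10.84, 10.80 and 11.00 on the HFD arrays, against 10.67, 10.82 and 9.93 on the ND arrays at 4 months. Its lowest value was that of ND 1-month replicate 3, and at 4 months every array was at or above 9.93. Cd53 read 8.51, 10.14 and 8.07 on the HFD arrays, against 5.78 and 3.70 on the ND arrays at 1 month, with no value on ND replicate 1. It read 5.41, 7.84 and 9.10 on the HFD arrays, against 10.92, 10.59 and 6.63 on the ND arrays at 2 months. It read 10.49, 9.72 and 10.14 on the HFD arrays, against 10.20, 10.67 and 9.57 on the ND arrays at 4 months. All 3 HFD arrays at 1 month were above the 2 ND arrays with a value, and the diets overlapped at the later times.

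Cd48 and Cx3cr1 stood apart with the smallest ranges. Cd48 read 10.22, 10.18 and 10.29 on the HFD arrays, against 10.14, 10.11 and 10.25 on the ND arrays at 1 month (log2 intensities). It read 10.55, 10.06 and 10.08 on the HFD arrays, against 10.05, 9.82 and 9.88 on the ND arrays at 2 months. It read 10.42, 10.07 and 10.30 on the HFD arrays, against 10.10, 10.26 and 10.21 on the ND arrays at 4 months. Its values stayed between 9.82 and 10.55 whatever the other genes did, and at 2 months all 3 HFD arrays were above all 3 ND arrays, by 0.31 log2 units on average. Cx3cr1, the fractalkine receptor, read 3.47, 3.71 and 3.96 on the HFD arrays, against 3.19, 3.34 and 3.45 on the ND arrays at 1 month. It read 3.87, 3.53 and 3.69 on the HFD arrays, against 3.54, 3.26 and 3.38 on the ND arrays at 2 months. It read 3.58, 3.81 and 3.56 on the HFD arrays, against 3.27, 3.18 and 3.68 on the ND arrays at 4 months. It lay between 3.18 and 3.96, close to the level of the dimmest 30% of probe sets, and all HFD arrays were above all ND arrays at 1 month, with overlap later.

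Among adaptors and signalling proteins, Ptprc, the phosphatase CD45 found on all white blood cells, read 5.99, 6.78 and 6.08 on the HFD arrays, against 7.27, 3.78 and 2.18 on the ND arrays at 1 month (log2 intensities). It read 3.16, 4.87 and 6.33 on the HFD arrays, against 7.56, 6.82 and 4.60 on the ND arrays at 2 months. It read 7.64, 6.99 and 7.28 on the HFD arrays, against 7.08, 7.96 and 5.81 on the ND arrays at 4 months. The order of the arrays was close to that of the common mean, with ND 1-month replicate 3 lowest and ND 4-month replicate 2 highest. The adaptors Tyrobp and Fcer1g, which couple receptors to tyrosine kinases, covered 4.71 to 10.70 and 5.28 to 11.90. The kinase Lyn, at 4.68 to 7.14, and the exchange factor Vav1, at 3.95 to 6.42, had the smallest SDs of the role, 0.91 each. The phosphatase Ptpn6, the GTPase Rac2, the protein kinase C substrate Plek, the cytosolic protein Arhgdib and the lysosomal membrane protein Laptm5 had SDs between 1.20 and 1.70. In the cytoskeletal role, Coro1a, Lcp1 and Aif1 had SDs of 1.37, 1.66 and 1.90. Second probe sets of Trem2, Ptprc, Lyn, Laptm5 and Cybb had correlations of 0.84 to 0.99 with the ones used. That of Aif1 did not follow, with a correlation of -0.08 over 17 arrays and values of 3.59 to 4.50.

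Among lysosomal, phagosomal and secreted effectors, Cybb, the membrane subunit of the NADPH oxidase, read 8.89, 10.73 and 8.50 on the HFD arrays, against 11.09, 6.03 and 4.74 on the ND arrays at 1 month (log2 intensities). It read 6.09, 8.87 and 9.02 on the HFD arrays, against 11.12, 11.05 and 6.99 on the ND arrays at 2 months. It read 10.60, 9.96 and 10.96 on the HFD arrays, against 10.24, 10.48 and 9.49 on the ND arrays at 4 months. It was high on all 6 arrays of 4 months. Like Fcgr2b, it was low on the same 3 ND arrays of the earlier times and on HFD 2-month replicate 1. Ncf1, which joins the same enzyme from the cytosol, read 3.21, 3.78 and 3.47 on the HFD arrays, against 3.89, 3.11 and 3.01 on the ND arrays at 1 month. It read 3.61, 2.99 and 3.63 on the HFD arrays, against 3.80, 4.09 and 3.02 on the ND arrays at 2 months. It read 3.91, 3.62 and 3.62 on the HFD arrays, against 3.72, 4.11 and 3.30 on the ND arrays at 4 months. Its range of 2.99 to 4.11 lies around the level of the dimmest 30% of probe sets, and the diets overlapped at every time. Cd68 covered 4.53 to 10.78, the cysteine protease Ctss 5.85 to 11.43, lysozyme Lyz2 8.07 to 12.97, the glycoprotein Gpnmb 8.57 to 12.59 and the galectin Lgals3 10.96 to 12.44. Lgals3 had an SD of 0.46, under 1 although it followed the common mean with a correlation of 0.93.

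**Figure D2:**
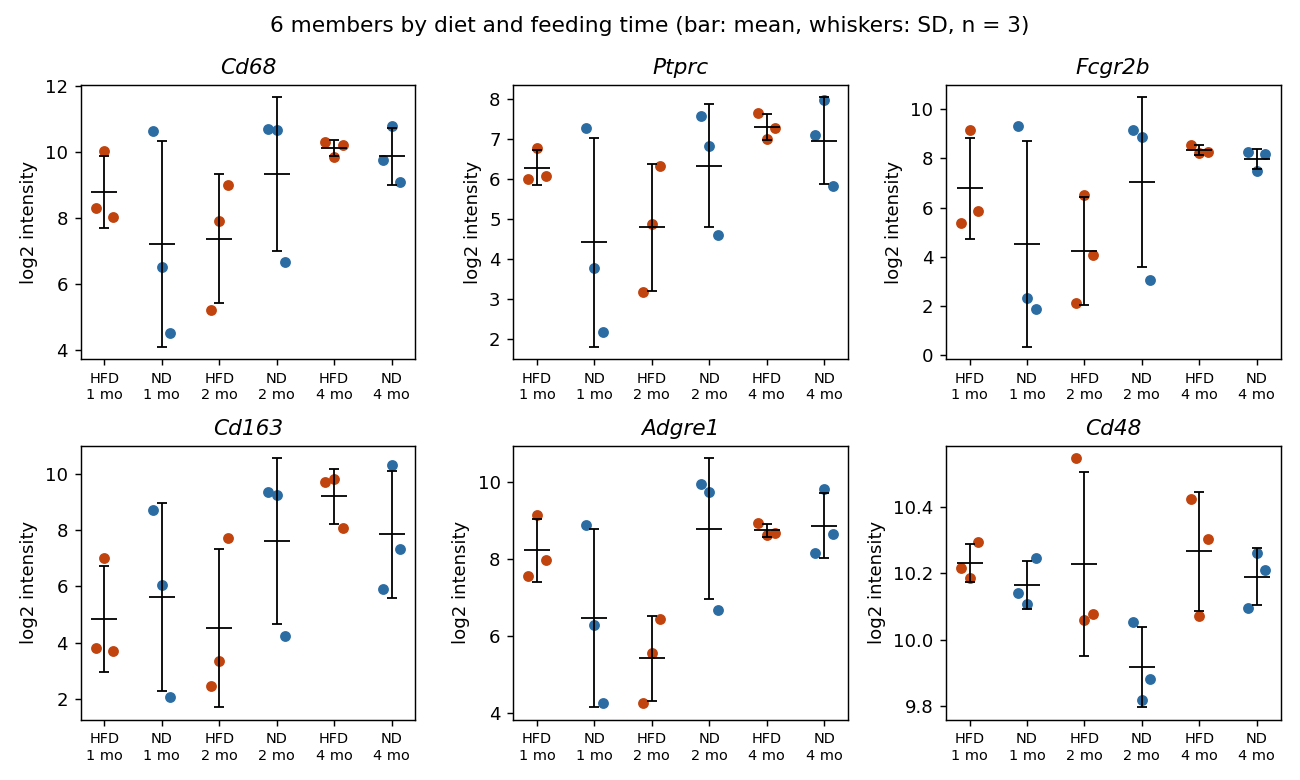
Log2 intensity of Cd68, Ptprc, Fcgr2b, Cd163, Adgre1 and Cd48 on each array, HFD left of ND at 1, 2 and 4 months, with the mean (bar) and SD (whiskers, n = 3) of each group; each panel has its own axis. The first 5 genes spread over several log2 units in ND at 1 and 2 months, Cd163 also in ND at 4 months, and Cd48 stays between 9.82 and 10.55.

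After 1 month of HFD, most of the genes had higher means in HFD than in ND, but 0 of 36 passed the test. The log2 fold change of HFD over ND was positive for 33 of the 36 genes with a median of 1.30, while the median of all named genes was -0.06. In limma 0 of 36 were called at a Benjamini-Hochberg adjusted p under 0.05, with 0% of all 11446 named genes called. At an unadjusted p under 0.05 there were 6 of the 36, against 8.91% of all named genes. Of these 6, Cd14, Cd53, Aif1 and Gpnmb have no value on ND replicate 1, and the others were Cx3cr1 and Lyz2. The median rests on single ND arrays: it was 0.41 without ND replicate 3 and 2.52 without ND replicate 1.

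Gpnmb read 11.54, 12.24 and 11.48 on the HFD arrays, against 10.01 and 8.57 on the ND arrays at 1 month, a log2 fold change of 2.46 ± 0.64 (SE, adjusted p = 0.236). Aif1, a calcium-binding protein of macrophages, read 7.05, 8.61 and 6.96 on the HFD arrays, against 4.60 and 2.96 on the ND arrays, a log2 fold change of 3.76 ± 1.12 (SE, adjusted p = 0.285). Cd53 stood at 4.17 ± 1.22 (SE, adjusted p = 0.281). These 3 genes have only ND replicates 2 and 3 to be compared with, and their fold changes cannot be set beside those of genes with all 3. Lyz2, with a value on every array, read 12.34, 12.92 and 12.17 on the HFD arrays, against 12.89, 9.60 and 8.07 on the ND arrays, a log2 fold change of 2.29 ± 0.91 (SE, adjusted p = 0.4). It was 3.64 without ND replicate 1 and 1.23 without ND replicate 3, since ND replicate 1 lay among the HFD arrays. Fcgr2b stood at 2.27 ± 1.89 (SE, adjusted p = 0.749), Cybb at 2.09 ± 1.41 (SE, adjusted p = 0.674) and Ptprc at 1.87 ± 1.10 (SE, adjusted p = 0.614). Without ND replicate 1 these became 4.67, 3.99 and 3.30, and without ND replicate 3 they became 0.95, 0.81 and 0.76. The 3 genes with fold changes below 0 were Cd163 at -0.76 ± 1.85 (SE, adjusted p = 0.941), C1qb at -0.09 ± 1.36 (SE, adjusted p = 0.993) and C1qa at -0.07 ± 1.35 (SE, adjusted p = 0.995). Without ND replicate 1 all 3 were above 0, at 0.79, 0.94 and 1.04.

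All HFD arrays were above all ND arrays at 1 month for 7 of the 36 genes and below for 0, where 5.39% of all named genes were above and 11.5% below. The 7 were Cx3cr1 and the 6 genes without a value on ND replicate 1. Of the 30 genes with all values, ND replicate 1 was the highest ND array for 28. Set against ND replicates 2 and 3 alone, all HFD arrays were higher for 26 of those 30, and for 12.5% of all named genes. That comparison leaves out the ND array nearest to HFD and is given to show what the missing values do.

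After 2 months of HFD the genes had lower means in HFD than in ND, and again 0 of 36 passed. The log2 fold change was negative for 34 of the 36 genes with a median of -1.51, against -0.04 for all named genes. In limma 0 of 36 were called, with 2.49% of all named genes called, and 3 of the 36 had an unadjusted p under 0.05, against 21.3% of all named genes. The median was -2.48 without ND replicate 3 and -0.88 without HFD replicate 1. With arrays weighted by how well they fit, which gave ND replicate 3 a weight of 0.39, 15 of the 36 were called, all lower in HFD, where 20.8% of all named genes were called. Without ND replicate 3 the calls were Adgre1 and Lyn, with 2.1% of all named genes called. Both settings discount the ND array that lay among the HFD arrays in the mean of the 30 genes, at 5.91 against 8.96 and 8.86 on the other ND arrays. The weights were estimated from these same arrays. These calls are given to show how far the result rests on that array.

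Adgre1, a surface receptor that marks mature macrophages in rodents, came closest to the threshold. It read 4.26, 5.56 and 6.43 on the HFD arrays, against 9.94, 9.73 and 6.67 on the ND arrays, a log2 fold change of -3.36 ± 1.03 (SE, adjusted p = 0.0891). All 3 HFD arrays lay below all 3 ND arrays, by a small gap between HFD replicate 3 and ND replicate 3. With array weights it stood at -4.05 and without ND replicate 3 at -4.42, and it was called under both, which discount that ND array. Lyn read 4.68, 4.97 and 5.61 on the HFD arrays, against 7.13, 7.14 and 4.70 on the ND arrays, a log2 fold change of -1.23 ± 0.54 (SE, adjusted p = 0.219), and was -2.05 without ND replicate 3. Cd163 stood at -3.10 ± 1.85 (SE, adjusted p = 0.353), Fcgr2b at -2.79 ± 1.89 (SE, adjusted p = 0.41), Mrc1 at -1.98 ± 1.42 (SE, adjusted p = 0.438) and Cybb at -1.73 ± 1.41 (SE, adjusted p = 0.497). Ptprc stood at -1.54 ± 1.10 (SE, adjusted p = 0.437), Itgam at -1.57 ± 1.12 (SE, adjusted p = 0.434) and Csf1r at -1.22 ± 1.21 (SE, adjusted p = 0.581). For each of these 7 genes ND replicate 3 lay within or below the HFD arrays, and without it their fold changes ranged from -4.80 for Cd163 to -2.40 for Ptprc. In the other direction Cd48 stood at 0.31 ± 0.13 (SE, adjusted p = 0.198), and it was 0.15 without HFD replicate 1.

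All HFD arrays were below all ND arrays at 2 months for 1 of the 36 genes, Adgre1, and above for 1, Cd48, where 14.8% of all named genes were below and 10.7% above. By role, the median log2 fold change at 2 months was -1.66 for surface receptors (11 of 13 negative), -1.46 for adaptors and signalling (10 of 10), -1.87 for the cytoskeletal genes (3 of 3), -1.02 for effectors (7 of 7) and -1.12 for C1q (3 of 3). These counts describe genes that moved together on the same arrays and are not separate observations.

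After 4 months of HFD the diets were close for most of the genes. The log2 fold change was positive for 31 of the 36 genes with a median of 0.32, against -0.01 for all named genes, and the median was 0.04 without ND replicate 3 and 0.62 without ND replicate 2. In limma 0 of 36 were called, with 0% of all named genes called, and 0 of 36 had an unadjusted p under 0.05, against 3.04% of all named genes. The arrays of the diets overlapped for all 36 genes, where 3.4% of all named genes had every HFD array above and 4.64% every HFD array below. The C1q genes and Ccr1 had the largest fold changes in the 2 directions, and their arrays are given next.

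**Figure D3:**
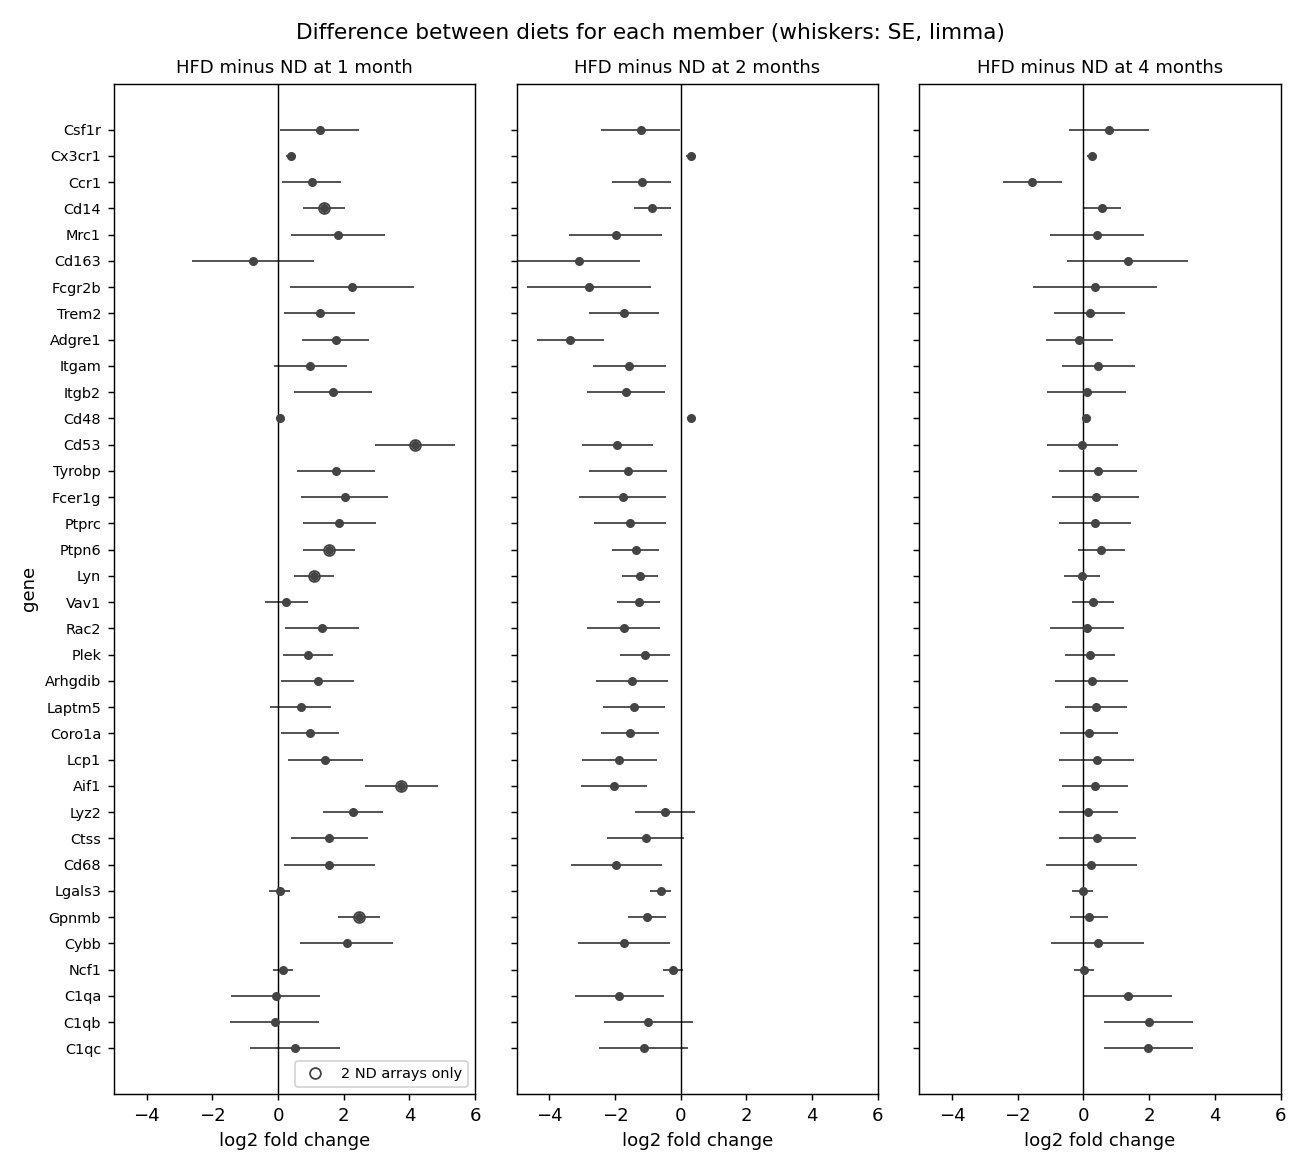
Log2 fold change of HFD over ND for each of the 36 genes at 1, 2 and 4 months, with its standard error from limma; rings mark the 6 genes compared on 2 ND arrays at 1 month. Points lie mostly right of 0 at 1 month, left of it at 2 months and near it at 4 months. The standard error exceeds the difference for 10 of the 36 genes at 1 month, 5 at 2 months and 31 at 4 months.

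C1qa, C1qb and C1qc encode the 3 chains of C1q, which starts the classical complement pathway. C1qa read 5.51, 6.13 and 4.90 on the HFD arrays, against 7.81, 5.24 and 3.71 on the ND arrays at 1 month (log2 intensities). It read 5.11, 3.47 and 7.00 on the HFD arrays, against 8.63, 8.16 and 4.40 on the ND arrays at 2 months. It read 8.96, 8.68 and 7.74 on the HFD arrays, against 4.96, 9.79 and 6.56 on the ND arrays at 4 months. At 4 months the HFD arrays lay between ND replicate 2, the highest of all 18, and the other 2 ND arrays. C1qb read 4.03, 4.40 and 3.62 on the HFD arrays, against 6.18, 3.11 and 3.05 on the ND arrays at 1 month. It read 4.07, 3.45 and 5.92 on the HFD arrays, against 6.57, 6.50 and 3.33 on the ND arrays at 2 months. It read 7.99, 7.32 and 6.40 on the HFD arrays, against 3.37, 9.05 and 3.35 on the ND arrays at 4 months. On ND 4-month replicates 1 and 3 it was about as low as anywhere in the series. C1qc read 5.49, 5.72 and 4.96 on the HFD arrays, against 7.04, 3.55 and 4.02 on the ND arrays at 1 month. It read 4.55, 4.09 and 6.52 on the HFD arrays, against 7.47, 7.20 and 3.86 on the ND arrays at 2 months. It read 8.26, 8.12 and 7.10 on the HFD arrays, against 4.10, 9.53 and 3.93 on the ND arrays at 4 months. The 3 genes kept a similar order of arrays, with rank correlations of 0.868 to 0.979 between them over 18 arrays. Their Pearson correlations were 0.926 to 0.985.

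At 4 months the log2 fold change of HFD over ND was 1.36 ± 1.35 (SE, adjusted p = 0.999) for C1qa, 1.98 ± 1.36 (SE, adjusted p = 0.999) for C1qb and 1.98 ± 1.36 (SE, adjusted p = 0.999) for C1qc. Without ND replicate 2 these were 2.70, 3.88 and 3.81. Without ND replicate 1 C1qa stood at 0.28, and without ND replicate 3 C1qb stood at 1.03 and C1qc at 1.02. Cd163, whose arrays were the most like those of C1qa among the genes compared with it (correlation 0.940), stood at 1.34 ± 1.85 (SE, adjusted p = 0.999), with 0.37 without ND replicate 1 and 2.57 without ND replicate 2. None of these passed.

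Ccr1, a receptor for inflammatory chemokines, had another pattern. It read 4.52, 6.39 and 5.27 on the HFD arrays, against 5.67, 3.76 and 3.67 on the ND arrays at 1 month (log2 intensities). It read 4.20, 5.29 and 4.04 on the HFD arrays, against 6.06, 7.17 and 3.88 on the ND arrays at 2 months. It read 5.07, 5.39 and 5.15 on the HFD arrays, against 7.65, 4.67 and 7.96 on the ND arrays at 4 months. Its 2 highest values were on ND 4-month replicates 1 and 3, the arrays where C1qb was low, and on ND 4-month replicate 2, where C1qb was highest, it was low. The log2 fold change of HFD over ND at 4 months was -1.56 ± 0.90 (SE, adjusted p = 0.999), with -2.60 without ND replicate 2 and -0.96 without ND replicate 3. Over the 18 arrays C1qb and Ccr1 had a Pearson correlation of 0.03 and a rank correlation of 0.27.

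Set against the mean of 25 other listed genes, C1q differed between the cultures of 4 months. The mean of the 3 C1q genes minus that of the 25 others was -0.52, -0.56 and -1.94 log2 units on the HFD arrays, against -4.43, 0.34 and -3.44 on the ND arrays. For Ccr1 the same difference was -3.86, -3.21 and -3.87 on the HFD arrays, against -0.92, -4.44 and -0.10 on the ND arrays. In these means ND replicates 1 and 3 thus had low C1q and high Ccr1 for their content of the other genes. ND replicate 2 had the reverse together with the 3 HFD arrays. On ND replicate 3 the low C1q mean came mainly from C1qb and C1qc, at 3.35 and 3.93. C1qa read 6.56 there beside 8.06 for the 25 others, and 7.74 beside 9.02 on HFD replicate 3. The group values were -1.01 ± 0.81 in HFD and -2.51 ± 2.52 in ND for C1q, and -3.64 ± 0.38 in HFD and -1.82 ± 2.31 in ND for Ccr1 (SD, n = 3 each). At 1 month C1q stood at -2.92 ± 0.49 in HFD and -1.77 ± 0.48 in ND, and at 2 months at -1.89 ± 1.33 in HFD and -1.97 ± 0.41 in ND. On ND 1-month replicates 2 and 3 C1qb read 3.11 and 3.05, below 3.22 log2 units, while the mean of the others was 5.97 and 4.81. Such dim values limit how low the difference can go where the other genes are low too. No test was run on these differences, which were formed after the arrays had been seen.

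**Figure D4:**
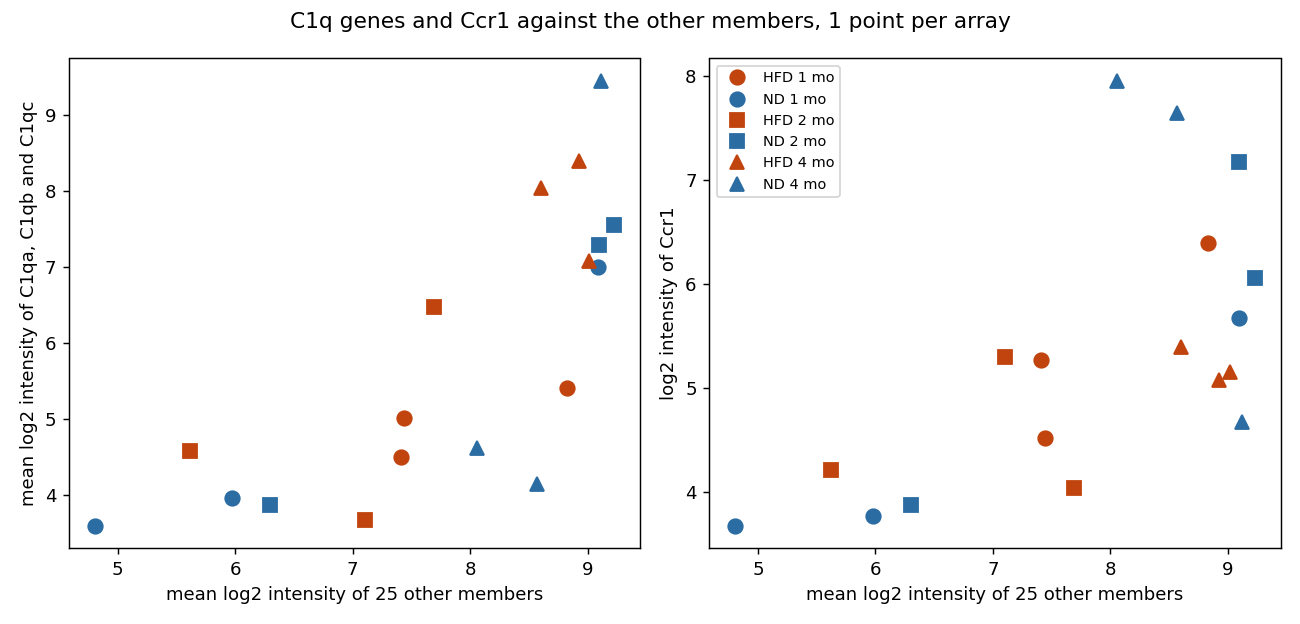
The mean log2 intensity of C1qa, C1qb and C1qc (left) and the log2 intensity of Ccr1 (right) against the mean of 25 other listed genes, 1 point per array, with red for HFD, blue for ND and the shape for the feeding time. Of the triangles of 4 months, ND replicates 1 and 3 lie low for the C1q mean and high for Ccr1, and ND replicate 2 lies with or beyond the HFD arrays.

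Averaged over the 3 feeding times, the diets did not separate the genes. The log2 fold change was positive for 19 and negative for 17 of the 36 with a median of 0.02, against -0.04 for all named genes, and leaving out 1 array gave medians of -0.27 to 0.42. In limma 0 of 36 were called, with 2.43% of all named genes called, and 1 of 36 had an unadjusted p under 0.05, against 20.8% of all named genes. That gene was Cx3cr1, at 0.32 ± 0.09 (SE, adjusted p = 0.0681). Its means were 3.72 in HFD and 3.33 in ND at 1 month, 3.70 in HFD and 3.39 in ND at 2 months, and 3.65 in HFD and 3.38 in ND at 4 months. It was the 1 of 36 called without ND 4-month replicate 3, at 0.37, where 1.64% of all named genes were called, and with array weights, at 0.31, where 14.9% were. The F test of whether the diet effect differed between the times called 0 of 36, with 0% of all named genes called and a lowest adjusted p of 0.532 for Gpnmb, and 6 of the 36 had an unadjusted p under 0.05, against 6.67% of all named genes. Of these 6, Gpnmb, Aif1, Cd53, Lyn and Ptpn6 have no value on ND 1-month replicate 1, and the other was Adgre1.

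Within HFD most of the genes had higher means at 4 than at 2 months. The log2 fold change of 4 over 2 months was positive for 35 of the 36 genes with a median of 2.28, against -0.01 for all named genes, and leaving out 1 array gave 1.63 to 2.83. All 3 arrays of 4 months were above all 3 of 2 months for 31 of the 36, where 13.7% of all named genes were. In limma 0 of 36 were called, with 0.769% of all named genes called, and 18 of the 36 had an unadjusted p under 0.05, against 18.7% of all named genes. Cd14, a co-receptor for bacterial lipopolysaccharide, read 11.20, 10.57 and 11.31 at 4 months and 8.52, 9.22 and 9.69 at 2 months, a log2 fold change of 1.88 ± 0.57 (SE, adjusted p = 0.131). Adgre1 read 8.94, 8.60 and 8.66 at 4 months and 4.26, 5.56 and 6.43 at 2 months, a log2 fold change of 3.32 ± 1.03 (SE, adjusted p = 0.133). Cd163 stood at 4.68 ± 1.85 (SE, adjusted p = 0.221), Fcgr2b at 4.10 ± 1.89 (SE, adjusted p = 0.29) and C1qb at 2.76 ± 1.36 (SE, adjusted p = 0.319). With array weights 19 of the 36 were called, all higher at 4 months, where 16.6% of all named genes were called. In a fit of those 6 arrays alone 1 of the 36 was called, Adgre1, with 1.57% of all named genes called.

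Within HFD, 2 months lay below 1 month for 35 of the 36 genes with a median log2 fold change of -0.95, and 4 months above 1 month for 34 with a median of 1.15. In limma 0 of 36 were called in either, with 0.0961% of all named genes called for 2 over 1 months and 0% for 4 over 1 months. The median of 2 over 1 months was -0.36 without HFD 2-month replicate 1 and -1.48 without HFD 2-month replicate 3. Within ND the medians were 1.84 for 2 over 1 months, 0.31 for 4 over 2 months and 2.31 for 4 over 1 months. Of these, 0 of 36 were called in each, with 0% of all named genes called in each. For 4 over 1 months in ND all 36 genes were positive and 15 had an unadjusted p under 0.05, against 9.96% of all named genes. The 6 with the smallest p were Cd53, Gpnmb, Aif1, Cd14, Ptpn6 and Lyn, the genes without a value on ND 1-month replicate 1. Fcgr2b stood at 3.46 ± 1.89 (SE, adjusted p = 0.592) and Cd163 at 2.24 ± 1.85 (SE, adjusted p = 0.731). Leaving out 1 array gave medians of 1.24 to 3.13 for 4 over 1 months, 0.81 to 3.04 for 2 over 1 months and -0.62 to 0.88 for 4 over 2 months, the ends coming from ND 1-month replicates 3 and 1 in the first 2 and from ND 2-month replicates 3 and 1 in the last. The comparisons within a diet share arrays with each other and with the comparisons of the diets.

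Genes outside the list moved with it. Among the 10534 named genes compared, all with a value on every array, 162 had a correlation above 0.9 with the mean of the 30 genes, and 7 had one below -0.9. The 12 with the highest were Fermt3 (0.991), which activates integrins in blood cells, Nckap1l (0.989), a blood-cell actin regulator, the cytokine Il18 (0.988), the IgG receptor Fcgr1a (0.987), the TNF family ligand Tnfsf13 (0.986), Fxyd2 (0.986), the transporter Slc15a3 (0.984), the folate receptor Folr2 (0.984), Arhgap30 (0.984), Rnf144b (0.980), Creg1 (0.979) and Arhgap9 (0.979). Fcgr1a covered 2.93 to 8.20 log2 units and Il18 2.79 to 8.97. The 6 with the lowest were Atp8b2 (-0.935), Ecrg4 (-0.911), the ephrin receptor Epha3 (-0.910), Lzts2 (-0.909), Tceal9 (-0.908) and Tulp3 (-0.907). Ecrg4 covered 2.86 to 7.58 log2 units, and Atp8b2 8.78 to 9.78. These correlations describe 18 arrays.

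Of 77 other myeloid genes in 6 lists, 58 were tested. Their log2 fold change of HFD over ND was positive for 45 with a median of 0.46 at 1 month, negative for 49 with a median of -0.93 at 2 months and positive for 43 with a median of 0.17 at 4 months. The mean of 14 other myeloid receptors had a correlation of 0.987 with the mean of the 30 genes, that of 4 genes of the oxidase and phagosome 0.974, that of 10 signalling and cytoskeletal genes 0.971, that of 6 ligands and monocyte attractants 0.923, that of 9 transcription factors 0.918 and that of 5 macrophage cytokines 0.838. Of the 48 measured on all 18 arrays, 21 had a correlation above 0.9 and 11 one below 0.5. Those with the largest SDs included the receptor Clec7a (3.99 to 9.63), the pore-forming Mpeg1 (3.49 to 10.32), the protease Mmp12 (4.30 to 11.73), the oxidase subunit Ncf4 (4.23 to 8.35), the myosin Myo1f (4.77 to 8.65), the adaptor Lcp2 (3.37 to 7.21) and the transcription factors Tfec (3.15 to 6.72) and Irf8 (3.16 to 6.10). In limma 1 of the 58 passed a comparison of the diets, that at 2 months, where 2.49% of all named genes were called. The gene was Cebpa, a transcription factor of myeloid and fat cells. It read 5.91, 5.46 and 6.51 on the HFD arrays, against 7.71, 7.49 and 7.64 on the ND arrays at 2 months, a log2 fold change of -1.65 (adjusted p = 0.0406). Cebpa followed the common mean with a correlation of 0.19 only, and its adjusted p lay above the threshold when 1 of 8 of the 18 arrays was left out, up to 0.167. Nr1h3, the oxysterol receptor LXR alpha, passed within HFD for 4 over 2 months, at 0.98 (adjusted p = 0.0330), and lost the call when 1 of 5 arrays was left out, up to 0.161. It was the 1 of the 58 called in that comparison, where 0.769% of all named genes were called. Csf1, the ligand of Csf1r, lay between 8.12 and 10.02 and had a correlation of -0.09 with the mean. Its 2 highest values, 9.54 and 10.02, were on ND 4-month replicates 1 and 3. Apoe, a lipid carrier bound by Trem2, covered 6.63 to 13.09 with a correlation of 0.96.

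Markers of other cells were read beside the list, and their part in the results was not tested. The 13 stromal markers with a value on every array, of 15 listed, had list means of 9.86 to 10.04 in HFD and 9.94 to 10.17 in ND at 2 months, and of 9.86 to 10.23 over all arrays. Single markers differed in how they ran with the mean of the 30 genes: Nt5e, at 5.85 to 8.66, had a correlation of 0.81, Alcam 0.68, Pdgfra 0.61, Mcam, at 6.88 to 8.91, -0.53, and Pdgfrb -0.75. In limma Pdgfra was lower in HFD at 2 months, at -1.08 (adjusted p = 0.0427), and lost the call when 1 of 8 arrays was left out, up to 0.160. It was the 1 called there of the 40 tested markers of other cells, where 2.49% of all named genes were called. Of 6 megakaryocyte markers 3 were tested: Pf4, a platelet chemokine, covered 4.61 to 11.87 with a correlation of 0.95, while Itga2b stayed at 4.00 to 4.71 and Gp9 at 2.91 to 3.95. The list mean of these 3 was 5.25 to 6.42 in HFD and 4.14 to 6.52 in ND at 1 month, 4.68 to 5.90 in HFD and 4.86 to 6.33 in ND at 2 months, and 6.16 to 6.40 in HFD and 5.56 to 6.27 in ND at 4 months. Of 10 T and NK cell markers 6 were tested: Cd8a covered 2.21 to 6.07 with a correlation of 0.86, Lck 4.84 to 6.14 with 0.89 and Cd4 3.98 to 5.15 with 0.53, while Cd3e stayed at 2.79 to 3.58 and Cd2 at 3.30 to 3.83. The list mean of the 6 was 3.94 to 4.47 in HFD and 3.83 to 4.74 in ND at 1 month, 3.96 to 4.13 in HFD and 3.95 to 4.60 in ND at 2 months, and 4.40 to 4.70 in HFD and 3.93 to 4.72 in ND at 4 months.

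The B cell gene Cd22, the 1 tested of 7, stayed at 2.98 to 3.58, while of 6 dendritic cell markers 2 were tested, Flt3 at 3.43 to 3.68 and Itgax at 4.14 to 7.17 with a correlation of 0.34. The 3 mast cell markers tested of 7, Cpa3, Mcpt1 and Hdc, had list means of 3.15 to 3.74. The 3 erythroid markers tested of 7, Epor, Slc4a1 and Hbb, lay between 3.54 and 5.08. Of 10 neutrophil granule markers 3 were tested, and S100a8, Camp and Csf3r reached 5.16, 5.47 and 4.74. The mean of Camp and Csf3r, with a value on every array, had a correlation of 0.816 with the mean of the 30 genes. Of 10 osteoclast markers 4 were tested. Acp5 covered 5.68 to 7.80, Mmp9 covered 3.03 to 8.23 with a correlation of 0.54, and the cathepsin Ctsk 8.04 to 9.56 with one of -0.66. The endothelial gene Tie1, the 1 tested of 8, covered 2.56 to 4.91 with a correlation of 0.91.

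**Figure D5:**
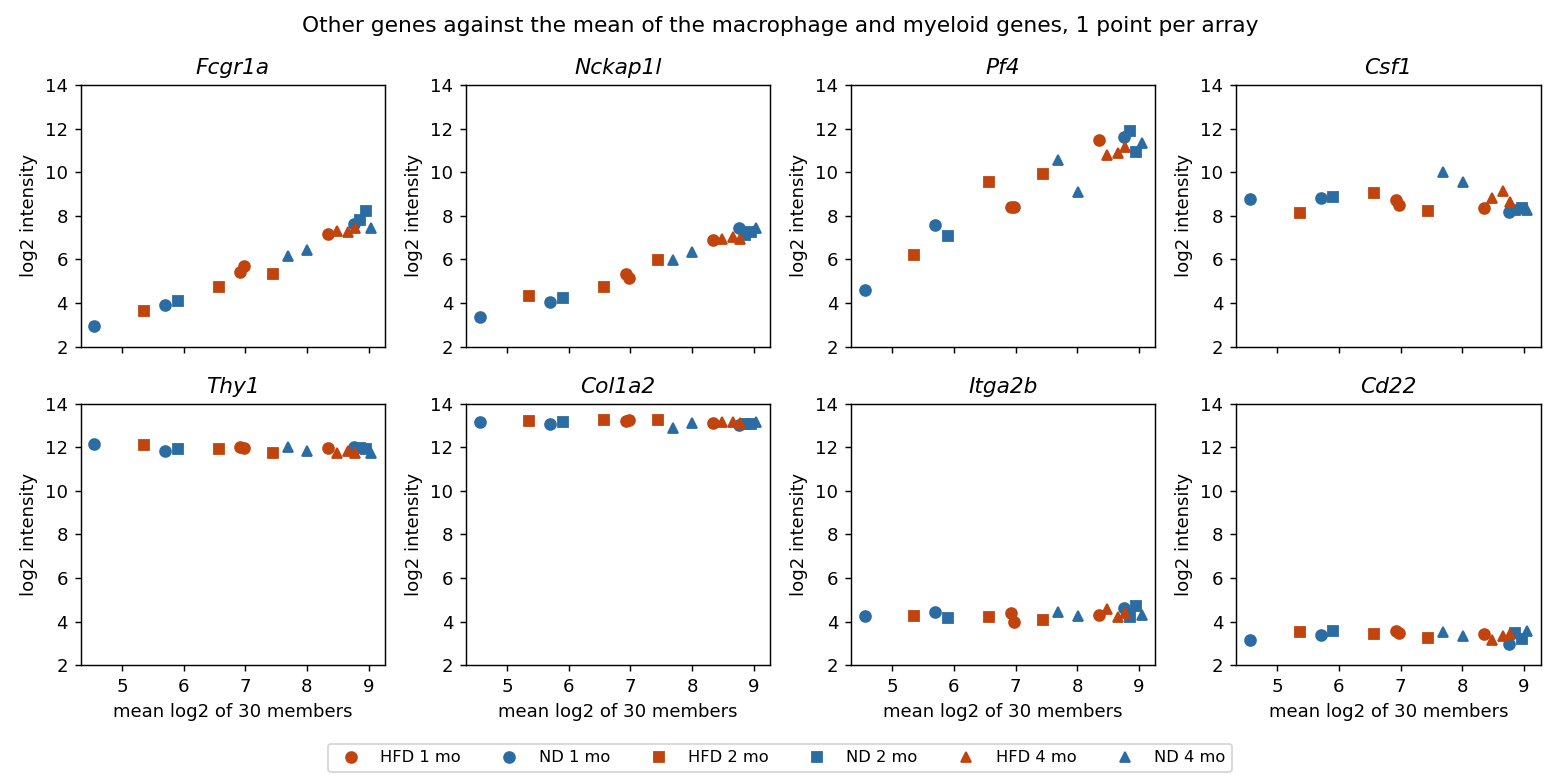
Log2 intensity of 8 genes outside the list against the mean of the 30 genes measured on all arrays, 1 point per array, with red for HFD, blue for ND and the shape for the feeding time; all panels share their axes. Fcgr1a, Nckap1l and Pf4 climb with the mean, while Csf1, Thy1, Col1a2, Itga2b and Cd22 stay near their own level.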

How the data were processed

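RNA of 18 cultures was measured on Affymetrix rat arrays. The deposited values are probe set intensities on a linear scale (2.52 to 9915) for 31099 probe sets, and the authors summarised them with RMA, per the submitters' processing notes; the version and the array build are not given in the sources used here. Log2 was taken with no added constant. Values of ND 1-month replicate 1 were moved down by that column's 1343 trailing empty cells: all 20 windows of 500 rows fitted the mean of the other arrays best at that offset (correlations of 0.980 to 0.997). The 57 controls and the 30% of remaining probe sets with the lowest mean log2 (at or below 9.34 in linear intensity) were left out, leaving 21729 probe sets. A gene is represented by its brightest tested probe set, named from the platform annotation, where 20832 probe sets have 1 symbol, 436 several and 9831 none.

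Using limma 3.58.1 in R 4.3.3, a linear model with 6 group means was fitted over the 18 arrays with default eBayes, and p-values (two-sided) were adjusted by Benjamini-Hochberg over all tested probe sets. Only 3 arrays per group limit the precision. The labels give no batch, date or pairing. The listed genes and the other gene lists were chosen with earlier results of these data known, so no p-value is given for a list. Genes named outside the list are the 12 most and 6 least like its mean, up to 3 with the largest SD in each other list, and those that passed; the others (Thy1, Col1a2, Eng, Alcam, Pdgfrb, Cd3e, Cd2, Csf1, Ccl2, Ccl7, Ccl5, Il6 and Tnf) were chosen after their values were seen. The procedure was tested on simulated data. Alternatives covered the filter, normalization, variance model, array weights, the arrays fitted, the choice of probe sets, the moved column, a replicate block and leaving out each array.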

Additional observations from a re-analysis of the deposited data

How the results depend on the processing

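The count of listed genes called equalled that reported, 0 in every comparison, in 310 of 317 combinations of comparison and alternative. In several comparisons, such as those of the diets at 1 and 4 months, 0% of all named genes were called as well. A count of 0 was thus likely there from the start, and the share is no measure of how firm the counts are. The median log2 fold change kept its sign in 287 of 299, the exceptions being in the diet average and in 4 over 2 months in ND. Many of these combinations could not move a median, such as leaving out an array of a group not compared or changing the variance model. Their share is thus no measure of how firm the medians are. With array weights the calls were 15 of 36 for HFD over ND at 2 months, 1 for the diet average (Cx3cr1), 19 for 4 over 2 months in HFD and 1 for 4 over 1 months in HFD (Cd14), where 20.8%, 14.9%, 16.6% and 2.28% of all named genes were called. Fitting just the 6 arrays of the comparison, 1 was called for 4 over 2 months in HFD. Leaving out 1 array gave 0 to 2 calls at 2 months and 0 to 1 for the diet average. The weights were estimated from these same arrays, and the 2 calls at 2 months came without ND 2-month replicate 3. The cause was not tested. Single log2 fold changes that turned sign were those of Cd163 at 1 month (0.81 with the column as deposited, -2.52 to 0.79 leaving out 1 array), C1qb at 1 month (0.27 with array weights, -0.63 to 0.94 leaving out 1 array, with 0.10 without HFD replicate 3), C1qa at 1 month (0.30 with array weights, 0.022 with the column as deposited, -1.01 to 1.04 leaving out 1 array, with 0.23 without HFD replicate 3) and Cx3cr1 averaged over the times (-0.28 with the column as deposited, where its values belong to other probe sets). Arrays with the same replicate number had a mean residual correlation of -0.03 over 45 pairs, and 5 of 18 were closest to their own number, so the numbers were not taken as pairs. With the replicate block 0 of 36 genes were called in each comparison, and the medians were 1.30, -1.51 and 0.32 at 1, 2 and 4 months. Every group holds the same replicate numbers, so the block could not change the fold change of a gene with all values. Under the block the calls of Cebpa and Pdgfra at 2 months and Nr1h3 within HFD had adjusted p = 0.0591, 0.0547 and 0.0566 in limma. The number of arrays, 3 per group, and the spread between cultures limit what can be called, and values near 3.22 log2 units lie among the dimmest probe sets.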

Other observations

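Cytokines and chemokines of macrophages did not all follow the common mean of the 30 listed genes. Il18 followed it with a correlation of 0.99 over 18 arrays, the chemokine Ccl3 with 0.89 and Ccl4 with 0.85, Il1b with 0.71 and Il6 with 0.31. Il1b covered 3.00 to 10.16 log2 units, Il1a 3.22 to 10.09 and Il6 4.34 to 9.25. Tnf stayed at 3.79 to 4.54 and Ccl5 at 3.13 to 4.03 on every array, so that both were low also on the arrays where the listed genes were high. The monocyte attractants Ccl2, at 10.42 to 12.69, and Ccl7, at 8.64 to 12.19, were high throughout. None of these genes passed a comparison in limma.

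After the part of each gene that followed the mean of the 25 other listed genes had been taken out, the remainder of C1qb was compared over 18 arrays with that of 1377 named genes whose remainder had an SD above 0.4. It ran most closely with Tmem176b (0.87), Ndufa4l2 (0.85), Rapgef5 (0.84) and C3ar1 (0.83), the receptor of a complement fragment, followed by Rimkla, Fcna, Cd8a and Irf8. It ran most against Dclk1 (-0.85), C2h4orf46 (-0.85), Fam83d (-0.82), the cyclin Ccne1 (-0.80) and the mitotic kinesin Kif23 (-0.79). These genes were chosen after their values were seen, the correlations are the extremes of 1377, and no test was run.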
